A study of Mus musculus with 9 samples.

Results

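Mitochondrial ribosomal proteins are the nuclear-encoded proteins of the ribosome inside mitochondria, and their mRNAs were compared between control cells and cells with less Med1. They were taken as the protein-coding mouse genes whose symbol starts with Mrpl or Mrps followed by a number, which gave 78 of the 55335 genes counted in each library. Of these, 49 carry a large subunit symbol (Mrpl) and 29 a small subunit symbol (Mrps), and 77 had enough counts to be tested. The gene left out, Mrpl53, had 0 counts in all 9 libraries.

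The cells were D2A1-d, a mouse breast carcinoma line that the labels give as wild type, grown in culture and transduced with short hairpin RNAs. The NTC group (3 samples) carried a non-targeting control hairpin, the shMed1 #2 group (3 samples) 1 hairpin against Med1, and the shMed1 #4 group (3 samples) another. Med1 is part of Mediator, which connects transcription factors with RNA polymerase II. Both hairpin groups are compared with the same 3 NTC samples, so their results are not independent. The sample titles call the samples of each group biological replicates, but the labels do not state separate cultures for them. Each p-value therefore reflects the spread among these libraries alone, which can be technical in part.

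The mitochondrial ribosome, or mitoribosome, makes the few proteins encoded by mitochondrial DNA, all of them subunits of the respiratory chain and ATP synthase. Its RNAs, the 12S rRNA of the small subunit and the 16S rRNA of the large one, come from mitochondrial DNA, while all of its proteins are made in the cytosol from nuclear genes and imported. Some of these proteins have counterparts in the bacterial ribosome and others are specific to mitochondria.

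Library totals ran from 8123918 to 8879982 counts, and 13611 genes were tested. Levels are in CPM, counts relative to the scaled library size, and differences are on the log2 scale. Med1 stood at 79.8 to 87.5 CPM in NTC, 22.1 to 25.2 CPM with shMed1 #2 and 25.02 to 26.6 CPM with shMed1 #4. Among markers of the labelled carcinoma, Krt18 stood at 50.3 to 51.0 CPM in NTC, but Krt7, Krt19 and Cdh1 were at or near 0 and Epcam had no counts in any library, while the mesenchymal markers Vim and Fn1 reached 1856 to 1898 and 2133 to 2298 CPM in NTC. The summed CPM of the 6 epithelial markers was 56.9 to 58.5 in NTC, 19.8 to 22.6 with shMed1 #2 and 41.6 to 52.02 with shMed1 #4, and that of the 3 mesenchymal markers was 3990 to 4164, 4583 to 4791 and 4761 to 4979. The 2 epithelial markers with enough counts to be tested were called lower with each hairpin. Their log2 fold changes were -1.74 and -1.43 with shMed1 #2 and -0.89 and -0.21 with shMed1 #4. All 3 mesenchymal markers were called with each hairpin, with Vim higher in both and Fn1 and Cdh2 in opposite directions. The part of these shifts in the results below was not tested. The summed CPM of the 5 leukocyte markers, 3 of them at 0 in every library and nearly all of the rest Csf1r, was 13.7 to 15.9 in NTC and 10.8 to 13.0 over both hairpin groups.

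In control cells the mRNAs of this one complex differed widely in level. Per kilobase of exon, Mrpl34 was highest at 64.0 ± 3.84 CPM per kilobase (SD, n = 3 NTC samples), followed by Mrpl28 at 61.9 ± 2.28, Mrpl18 at 60.4 ± 2.47, Mrps21 at 52.1 ± 1.07 and Mrpl52 at 43.0 ± 3.74. The first 3 of these lay within their spread of each other. At the other end Mrpl33 stood at 1.14 ± 0.0906 CPM per kilobase, Mrpl32 at 4.02 ± 0.407, Mrps35 at 4.06 ± 0.241 and Mrpl23 at 4.32 ± 0.228, and the last 3 did not differ beyond their spread. The highest tested member was 56.3 times the lowest. The median was 18.8 CPM per kilobase over the large subunit genes and 13.4 over the small subunit genes. With the longest transcript in place of the union of all exons as the length, 3 of the 5 highest members stayed among the 5 highest. The range of the tested members was then narrower, from Mrpl33 at 3.04 to Mrpl20 at 83.9 CPM per kilobase. Mrpl53 (chromosome 6, 83109040 to 83109939, plus strand, GRCm38) is listed at 0, and 88.0% of its exon length is shared with Gm42688 on the same strand. A count of 3 would be 0.338 to 0.369 CPM in these libraries.

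**Figure D1:**
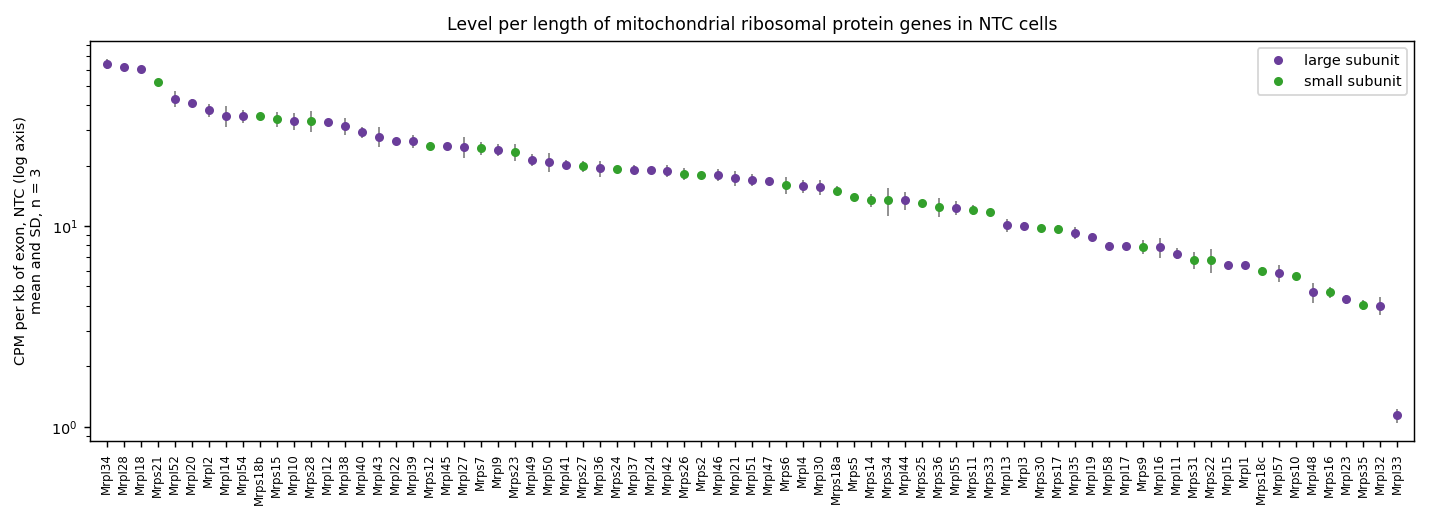
Level of each mitochondrial ribosomal protein mRNA in the 3 NTC samples, as CPM per kilobase of exon on a log axis, with points for the mean and bars for the SD, ordered by level and coloured by subunit. The large subunit runs from Mrpl33 at 1.14 to Mrpl34 at 64.0 and the small subunit from Mrps35 at 4.06 to Mrps21 at 52.1.

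With less Med1, changes in the mitoribosome mRNAs were small and mostly upward, and no member reached 1.5-fold against NTC with either hairpin. With shMed1 #2, 23 of 77 members rose and 7 fell, with a median log2 fold change of 0.05 beside -0.003 over all genes tested. The share called was 39.0% of the members beside 43.7% of all genes tested, of which 21.8% were higher and 21.9% lower. With shMed1 #4, 14 rose and 5 fell, with a median of 0.07 beside 0.001 over all genes, and the share called was 24.7% beside 28.2% (14.0% higher and 14.1% lower). For the mean of both hairpins 21 rose and 4 fell (32.5% called, beside 39.9% of all genes tested, with 19.7% higher and 20.2% lower). A call means that the Benjamini-Hochberg p of edgeR's quasi-likelihood test, adjusted over all genes, was under 0.05. In RNA from whole cultures, fewer cells with a transcript and less of it per cell cannot be told apart.

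Without replicate 1 of shMed1 #4, 12 members were called with that hairpin, and without replicate 1 of NTC 9 rose with it. Without replicate 3 of NTC, 3 fell with shMed1 #2 and 0 with shMed1 #4. Well expressed genes in general also rose more often than they fell. Among the 8530 genes whose mean reached 4 log2 CPM, 30.3% rose and 22.1% fell with shMed1 #2, and 19.6% rose and 15.8% fell with shMed1 #4, beside 29.9% and 9.09% of the members with the first hairpin and 18.2% and 6.49% with the second. The median log2 fold change of these 8530 genes was 0.036 with shMed1 #2 and 0.018 with shMed1 #4, beside 0.049 and 0.072 for the members. The split also depends on the scaling. With library size alone in place of TMM scaling, 18 members rose and 12 fell with shMed1 #2, and with upper quartile scaling 20 rose and 9 fell.

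Sizes were bounded closely. The 95% interval of the fold change lay within 1.5-fold either way for 74 of the 77 members with shMed1 #2 and for 75 with shMed1 #4, and within 1.2-fold for 27 and 35. Over all genes tested, 11.2% were called with a change of at least 1.5-fold with shMed1 #2 and 5.32% with shMed1 #4. The coefficient of variation over the NTC samples had a median of 6.63% over the members. All 3 samples lay above all 3 NTC samples for 27 members with shMed1 #2 and below for 10, beside 25.7% and 25.8% of all genes tested. With shMed1 #4 the counts were 19 above and 7 below, beside 19.3% and 19.6%.

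**Figure D2:**
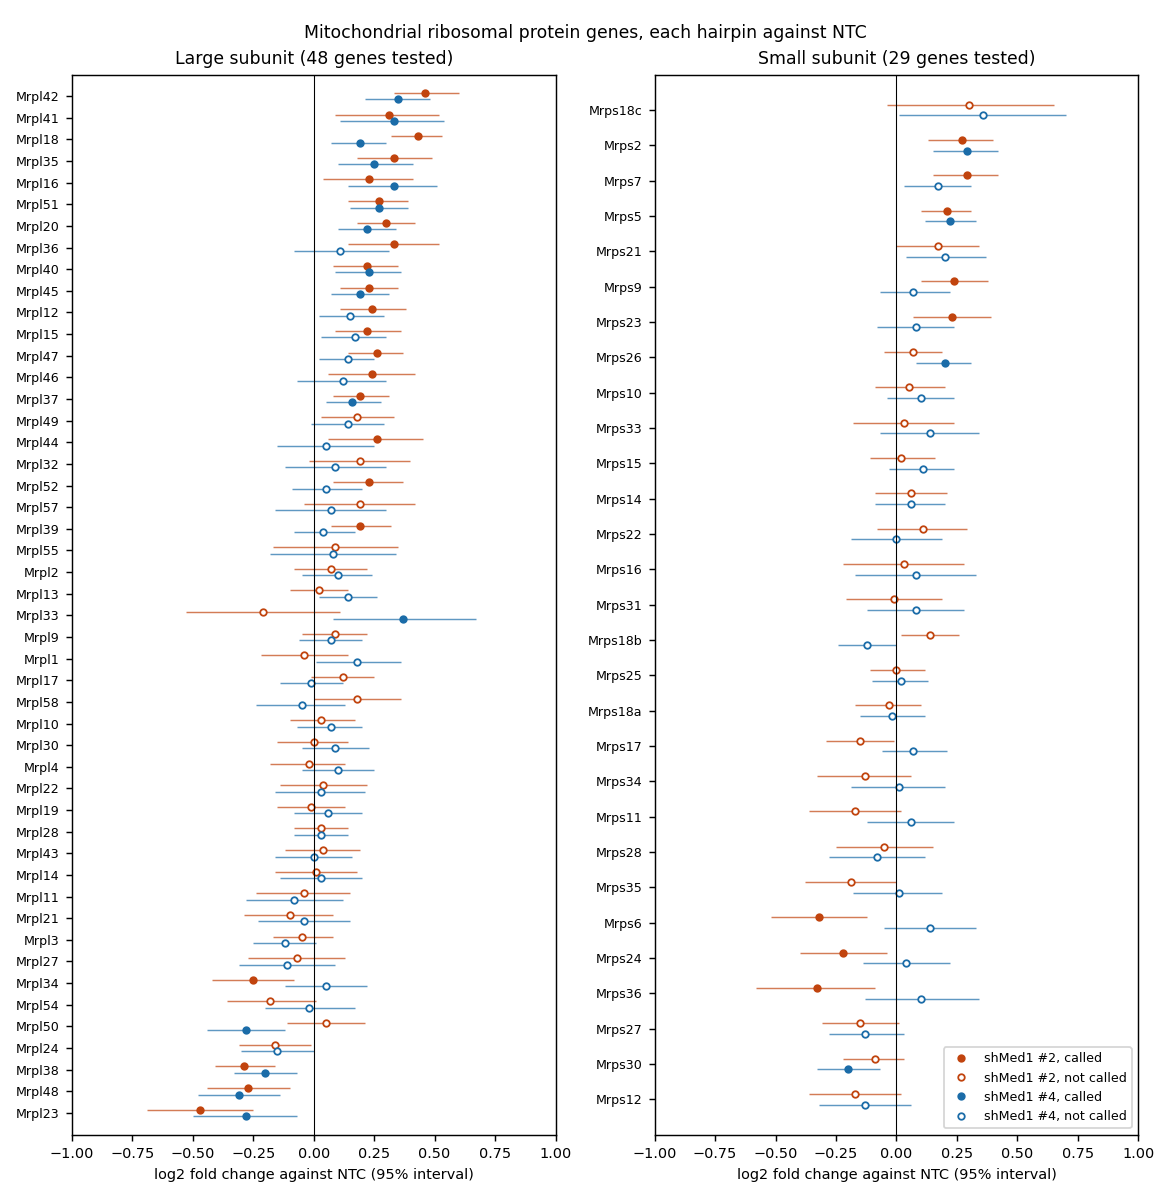
Log2 fold change of each tested mitochondrial ribosomal protein mRNA against NTC with shMed1 #2 and with shMed1 #4, in 1 panel for each subunit, with bars for the 95% interval and filled points where the adjusted p was under 0.05. Mrpl42 stands highest with shMed1 #2 at 0.46 and Mrpl23 lowest at -0.47.

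Calls were counted by subunit, and the difference between the subunits was not tested. With shMed1 #2, 18 of 48 large subunit members rose and 4 fell (45.8% called, median 0.09), beside 5 and 3 of 29 small subunit members (27.6%, median 0.02). With shMed1 #4 the counts were 11 and 4 for the large subunit (31.2%, median 0.07) and 3 and 1 for the small one (13.8%, median 0.07). Over all genes tested 43.7% and 28.2% were called, near the shares of the large subunit and above those of the small one. The symbols do not fully follow the assembled ribosome, in which the products of Mrps30 and Mrps18a belong to the large subunit and Mrps36 is no longer counted as a member. With that assignment, 18 of 50 large subunit members rose and 4 fell with shMed1 #2, beside 5 and 2 of 26 small subunit members.

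The balance of the subunits was compared per sample as the mean log2 CPM of the large subunit genes minus that of the small subunit genes. It was 0.128, 0.108 and 0.153 in the 3 NTC samples, 0.202, 0.205 and 0.214 with shMed1 #2, and 0.162, 0.104 and 0.143 with shMed1 #4. All 3 values with shMed1 #2 lay above all the others, while the values with shMed1 #4 overlapped those of NTC. With shMed1 #4 the small subunit mean (5.24 to 5.27 log2 CPM) lay above NTC (5.16 to 5.21) in all 3 samples as well. The large minus small mean exceeded that of NTC by 0.077 with shMed1 #2 and by 0.007 with shMed1 #4. With Mrps30 and Mrps18a in the large subunit and Mrps36 left out, the first difference was 0.053 and the second -0.012. No p is given, since the value is a score over chosen members.

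**Figure D3:**
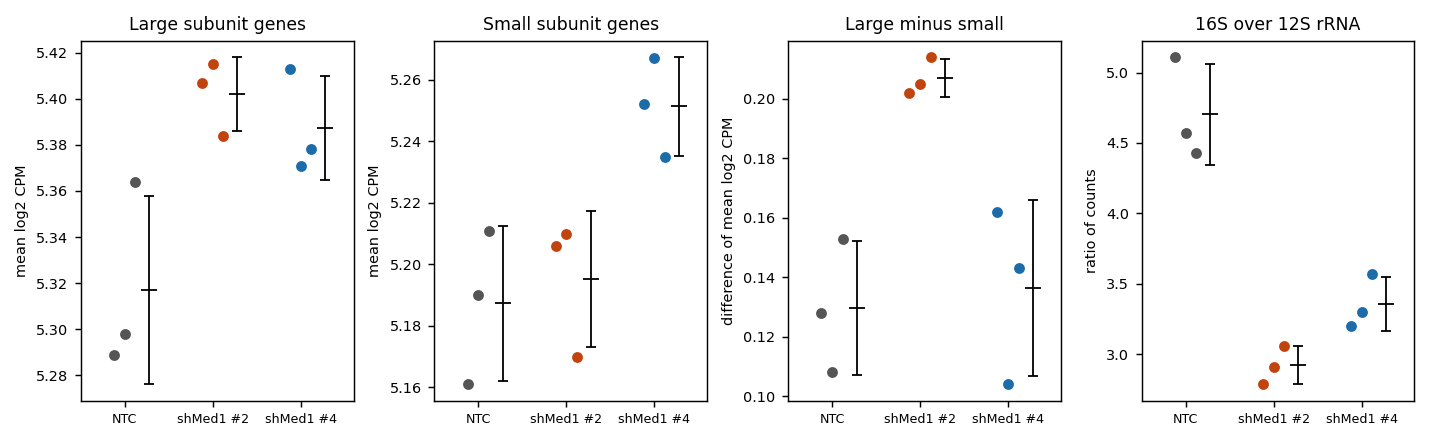
Mean log2 CPM of large subunit genes and of small subunit genes, their difference, and the ratio of 16S to 12S rRNA counts, with points for the 9 samples and bars for the mean and SD of each group of 3. The large minus small difference lies between 0.202 and 0.214 with shMed1 #2 and between 0.104 and 0.162 in the other samples, and every hairpin sample has a 16S to 12S ratio below those of NTC.

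Members that rose with both hairpins numbered 12, beside 10.4% of all genes tested, and 10 of them belong to the large subunit. They were Mrpl16, Mrpl18, Mrpl20, Mrpl35, Mrpl37, Mrpl40, Mrpl41, Mrpl42, Mrpl45, Mrpl51, Mrps2 and Mrps5. The data were refitted under 21 alternatives, namely other scaling, filters, tests or terms, or with a library left out. Calls that held with both hairpins in all 21 were those of Mrpl20, Mrpl42, Mrpl51, Mrps2 and Mrps5. A minimum of 1.2-fold, which is not among the 21, would end both calls of Mrps5 and that of Mrpl20 with shMed1 #4, since their fold changes lay below it.

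Mrpl42 (chromosome 10, 95480805 to 95501940, minus strand), which encodes a mitochondria-specific protein of the large subunit, had the largest rise with shMed1 #2. It stood at 74.1, 64.2 and 69.8 CPM in NTC, 98.2, 98.8 and 89.6 CPM with shMed1 #2, and 96.0, 92.9 and 75.7 CPM with shMed1 #4. Neither hairpin group overlapped NTC, although replicate 3 of shMed1 #4 lay near it. The rise came to 0.46 with shMed1 #2 (SE 0.0669, adjusted p = 1.21e-07) and to 0.35 with shMed1 #4 (SE 0.0678, adjusted p = 6.89e-05).

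Mrpl18 (chromosome 17, 12911349 to 12916345, minus strand) encodes the mitochondrial relative of the bacterial protein that binds 5S rRNA. It stood at 82.4, 82.6 and 88.5 CPM in NTC, 118, 115 and 108 CPM with shMed1 #2, and 93.6, 100.4 and 94.6 CPM with shMed1 #4. The 3 groups did not overlap, with shMed1 #4 in the middle. With shMed1 #2 it rose by 0.43 (SE 0.0548, adjusted p = 3.45e-10), with shMed1 #4 by 0.19 (SE 0.056, adjusted p = 0.00738), and the hairpins differed by -0.24 (adjusted p = 0.000293). Without replicate 2 of shMed1 #4 the second rise did not pass the test (adjusted p = 0.0557, with a range of 0.00594 to 0.0557 over the alternatives).

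Mrpl20, whose bacterial counterpart binds the large rRNA early in assembly, stood at 64.4, 70.4 and 69.1 CPM in NTC, 82.2, 84.6 and 84.0 CPM with shMed1 #2, and 78.3, 82.6 and 76.3 CPM with shMed1 #4. Its values with either hairpin all lay above NTC, by 0.30 (adjusted p = 1.8e-05) and 0.22 (adjusted p = 0.00322). Mrpl51, another mitochondria-specific large subunit gene, rose by 0.27 with each hairpin (adjusted p = 0.000216 and 0.000389), from 64.5, 67.7 and 73.9 CPM in NTC to 83.1, 76.6 and 88.4 CPM and to 88.0, 81.4 and 79.1 CPM. Its difference between the hairpins was 0.00, with a 95% interval from -0.12 to 0.12.

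Mrps2 and Mrps5 were the small subunit genes that rose with both hairpins, and both have bacterial counterparts. Mrps2 stood at 53.6, 51.8 and 52.3 CPM in NTC, 63.6, 59.5 and 66.6 CPM with shMed1 #2, and 68.8, 65.5 and 58.4 CPM with shMed1 #4. The groups did not overlap NTC, and the rises were 0.27 (adjusted p = 0.000684) and 0.29 (adjusted p = 0.000446). Mrps5, named after its values were seen, rose by 0.21 (adjusted p = 0.00102) and 0.22 (adjusted p = 0.00063).

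The rises of 3 further large subunit genes were less stable. Mrpl35 rose by 0.33 (adjusted p = 0.000254) with shMed1 #2 and by 0.25 (adjusted p = 0.0098) with shMed1 #4, and the second call was lost without replicate 1 of NTC (adjusted p = 0.0856) or replicate 1 of shMed1 #4 (adjusted p = 0.194), in a range from 0.00396 to 0.194. Mrpl41, specific to mitochondria, rose by 0.31 (adjusted p = 0.0146) and 0.33 (adjusted p = 0.0152), and 3 and 4 of the 21 alternatives ended these calls, with adjusted p up to 0.164 and 0.0935. The libraries whose removal did so were replicate 1 of NTC for both, replicate 3 of shMed1 #2, and replicates 1 and 2 of shMed1 #4. Mrpl16, whose bacterial counterpart lies near the peptidyl transferase centre, rose by 0.33 with shMed1 #4 (adjusted p = 0.00404), but its rise of 0.23 with shMed1 #2 (adjusted p = 0.0409) was lost in 11 of the 21 alternatives, with adjusted p from 0.00994 to 0.234, among them those without replicate 2 or 3 of NTC or replicate 2 of shMed1 #2. The rise with shMed1 #4 was lost without replicate 2 of NTC (adjusted p = 0.0573, in a range from 0.00114 to 0.0573).

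Another 11 members were called higher with shMed1 #2 alone, 8 of them in the large subunit. Of all genes tested, 21.8% were called higher with shMed1 #2 and 10.4% with both hairpins. Mrpl12 encodes a protein of the flexible stalk where translation factors bind, which is also known to bind mitochondrial RNA polymerase. It stood at 50.7, 51.6 and 49.0 CPM in NTC, 57.6, 63.1 and 58.2 CPM with shMed1 #2, and 57.0, 58.7 and 52.6 CPM with shMed1 #4. All hairpin samples lay above NTC, but only the first difference passed the test (0.24, adjusted p = 0.00208, against 0.15, adjusted p = 0.0813), and the hairpins differed by -0.09 with a 95% interval from -0.22 to 0.04. Mrpl36 rose by 0.33 (adjusted p = 0.00294) with shMed1 #2 and differed by 0.11 (adjusted p = 0.436) with shMed1 #4. Mrpl52, specific to mitochondria and among the 5 most abundant per length, rose by 0.23 (adjusted p = 0.00663) with shMed1 #2, a call lost without replicate 1 of NTC (adjusted p = 0.0801, in a range from 0.00182 to 0.0801). Its difference with shMed1 #4 was 0.05 (adjusted p = 0.645).

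The members that fell with both hairpins were Mrpl23, Mrpl38 and Mrpl48, beside 10.1% of all genes tested, and all 3 belong to the large subunit. Mrpl23 (chromosome 7, 142532686 to 142540747, plus strand) encodes a protein at the exit of the peptide tunnel. It stood at 21.1, 20 and 22.2 CPM in NTC, 14.6, 14.3 and 16.8 CPM with shMed1 #2, and 16.2, 17.3 and 18.6 CPM with shMed1 #4. No hairpin sample reached the lowest NTC value. The fall of -0.47 (SE 0.111, adjusted p = 0.000258) with shMed1 #2 held in all 21 refits, whereas that of -0.28 (SE 0.108, adjusted p = 0.04) with shMed1 #4 was lost in 8 of 21, with adjusted p from 0.0226 to 0.164, among them those without replicate 1 or 3 of NTC or replicate 1 or 2 of shMed1 #4.

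Mrpl48, a mitochondria-specific gene, stood at 39.5, 33.3 and 41.6 CPM in NTC, 28.4, 33.1 and 33.5 CPM with shMed1 #2, and 29.7, 30.5 and 32.3 CPM with shMed1 #4. The values with shMed1 #4 lay below NTC and those with shMed1 #2 overlapped it. The falls were -0.27 (adjusted p = 0.00719) and -0.31 (adjusted p = 0.00374), and both were lost without replicate 3 of NTC (adjusted p = 0.0903 and 0.0606, in ranges from 0.00106 to 0.0924 and from 0.000667 to 0.0606). The first was lost also without replicate 1 of shMed1 #2 (adjusted p = 0.0924).

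Mrpl38, also specific to mitochondria, stood at 71.0, 84.2 and 85.3 CPM in NTC, 71.0, 60.7 and 65.7 CPM with shMed1 #2, and 67.7, 69.0 and 72.7 CPM with shMed1 #4. Replicate 1 of NTC overlapped both hairpin groups. Its falls of -0.29 (adjusted p = 0.00015) and -0.20 (adjusted p = 0.0118) were lost in 2 and 4 of 21 alternatives. With offsets for GC content and length the first was -0.14 with an adjusted p of 0.0596, in a range from 7.08e-06 to 0.0668. The second was lost without replicate 2 of NTC (adjusted p = 0.0944), replicate 3 of NTC (adjusted p = 0.112) or replicate 1 of shMed1 #4 (adjusted p = 0.0626), in a range from 0.000916 to 0.112.

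**Figure D4:**
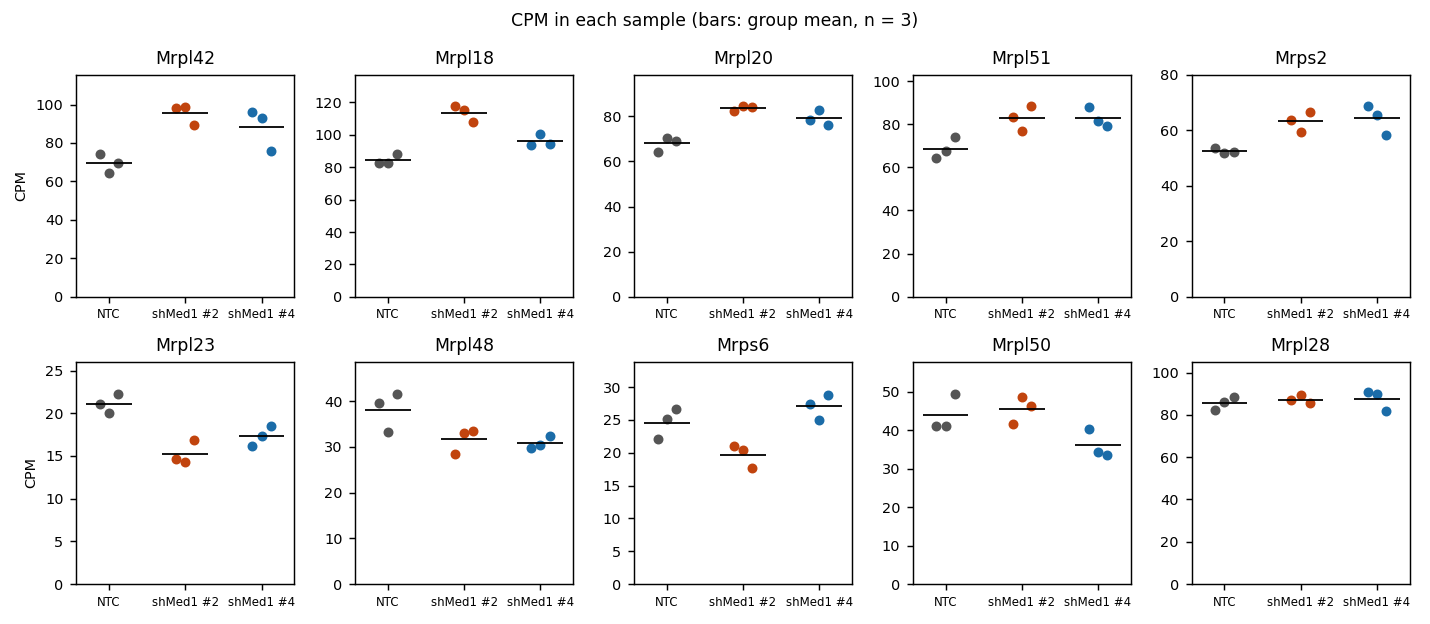
CPM of 10 mitochondrial ribosomal protein genes in each of the 9 samples, with points for samples and bars for the mean of each group of 3. Mrpl42, Mrpl18, Mrpl20, Mrpl51 and Mrps2 lie above NTC with both hairpins, Mrpl23 lies below, Mrps6 and Mrpl50 separate the hairpins, and Mrpl28 overlaps in all groups.

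The hairpins did not act alike on every member. Between shMed1 #4 and shMed1 #2, 7 members were higher and 4 lower with shMed1 #4 (14.3% called, beside 26.0% of all genes tested, with 12.9% higher and 13.1% lower), and the median difference was 0.01 beside 0.008. Without replicate 2 of shMed1 #2, 7 members were called, and without replicate 1 of shMed1 #4, 6 were higher and 8 lower. Of the 48 large subunit members 3 were higher and 3 lower, and of the 29 small subunit members 4 were higher and 1 lower. No member was called in opposite directions against NTC, a count that was not made over all genes tested.

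Mrps6, whose bacterial counterpart lies at the platform of the small subunit, fell with shMed1 #2 only. It stood at 22.1, 25.1 and 26.6 CPM in NTC, 21.04, 20.4 and 17.6 CPM with shMed1 #2, and 27.4, 25.03 and 28.9 CPM with shMed1 #4. The 2 hairpin groups did not overlap, while shMed1 #4 overlapped NTC. The log2 fold change was -0.32 (adjusted p = 0.00721) with shMed1 #2 and 0.14 (adjusted p = 0.303) with shMed1 #4, and the difference of 0.46 (SE 0.1, adjusted p = 0.000191) held in all 21 refits. The fall was lost without replicate 3 of NTC (adjusted p = 0.0653) or replicate 3 of shMed1 #2 (adjusted p = 0.0752), in a range from 0.00201 to 0.0752. In all, 19.9% of the Mrps6 exon length overlaps other genes, mostly Gm49711.

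Mrpl33, a large subunit gene with a bacterial counterpart and the lowest tested level per kilobase of exon, stood at 8.24, 7.71 and 9.03 CPM in NTC, 7.70, 7.55 and 6.34 CPM with shMed1 #2, and 10.8, 11.4 and 10.2 CPM with shMed1 #4. It lay just below NTC with shMed1 #2 and above NTC with shMed1 #4. The difference between the hairpins, 0.59 (SE 0.152, adjusted p = 0.00176), was the largest of any member and the only one to reach 1.5-fold. The rise of 0.37 against NTC with shMed1 #4 (adjusted p = 0.0481) was lost in 11 of 20 alternatives, with adjusted p from 0.0474 to 0.16, among them those without any 1 of the NTC samples or replicate 1 or 2 of shMed1 #4.

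Mrpl34, first in NTC level per kilobase of exon union but 6th with the longest transcript as length, fell by 0.25 with shMed1 #2 (adjusted p = 0.0149) and differed by 0.05 (adjusted p = 0.712) with shMed1 #4. It stood at 37.6, 37.5 and 41.6 CPM in NTC, 35.6, 27.05 and 35.6 CPM with shMed1 #2, and 39.0, 37.7 and 44.05 CPM with shMed1 #4. The fall turned on the low replicate 2 of shMed1 #2, without which its adjusted p was 0.285 and that of the hairpin difference of 0.30 was 0.165, against 0.00569 with all samples. Without replicate 3 of NTC the fall had an adjusted p of 0.106, and without replicate 3 of shMed1 #4 the difference had 0.0741. Over the alternatives the adjusted p ranged from 0.00372 to 0.285 for the fall and from 0.00258 to 0.165 for the difference.

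Mrps36 was lower with shMed1 #2 (12.4, 13.2 and 11.8 CPM) than in NTC (17.7, 14.6 and 14.9 CPM) or with shMed1 #4 (15.2, 17.5 and 18.0 CPM). It is now known as a subunit of the 2-oxoglutarate dehydrogenase complex of the citric acid cycle. The fall of -0.33 (adjusted p = 0.0215) was lost in 4 of 20 alternatives, with adjusted p from 0.00259 to 0.167, among them those without replicate 1 of NTC or replicate 1 or 3 of shMed1 #2. The difference between the hairpins was 0.44 (adjusted p = 0.00391).

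Mrpl50, a mitochondria-specific large subunit gene, fell with shMed1 #4 only. It stood at 41.1, 41.1 and 49.4 CPM in NTC, 41.5, 48.7 and 46.2 CPM with shMed1 #2, and 40.4, 34.4 and 33.6 CPM with shMed1 #4. The values with shMed1 #4 lay below all others, with replicate 1 close to NTC. The fall was -0.28 (adjusted p = 0.00571), the value with shMed1 #2 was 0.05 (adjusted p = 0.649), and the hairpins differed by -0.33 (adjusted p = 0.00104). Without replicate 3 of NTC the fall had an adjusted p of 0.133, in a range from 0.000716 to 0.133.

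None of the 3 genes descended from the bacterial S18 protein was called against NTC. Mrps18b, part of the small subunit, stood at 76.1, 70.7 and 74.0 CPM in NTC, 85.3, 80.4 and 77.5 CPM with shMed1 #2, and 65.3, 68.5 and 69.9 CPM with shMed1 #4. Neither difference from NTC passed the test (0.14, adjusted p = 0.051, and -0.12, adjusted p = 0.153), but the hairpins differed by -0.26 (adjusted p = 0.000556), with 30.5% of its exon length overlapped by other genes. Mrps18a was among the 3 members whose intervals lay closest to 0, at -0.03 and -0.02, and Mrps18c, at 6.15 to 10.8 CPM, differed by 0.30 (adjusted p = 0.157) and 0.36 (adjusted p = 0.12).

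Other members of particular role were also compared. Mrps30, a protein of the large subunit despite its symbol, fell by 0.20 with shMed1 #4 (adjusted p = 0.0144), a call lost without replicate 3 of NTC (adjusted p = 0.0697) or replicate 2 of shMed1 #4 (adjusted p = 0.129), in a range from 0.00564 to 0.129. Mrpl58, a peptidyl-tRNA hydrolase that frees stalled chains and is built into the large subunit, differed by 0.18 (adjusted p = 0.105) and -0.05 (adjusted p = 0.714) from NTC, and the difference of -0.23 between the hairpins (adjusted p = 0.0481) was lost in 17 of 21 alternatives, with adjusted p up to 0.202. Mrps34, with 77.8% of its exon length overlapped, mostly by Mapk8ip3, differed by -0.13 (adjusted p = 0.279) and 0.01 (adjusted p = 0.976).

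The intervals of Mrpl28 and Mrps25 lay closest to 0, beside those of Mrps18a. Mrpl28 stood at 82.1, 86.2 and 88.2 CPM in NTC, 87.1, 89.2 and 85.4 CPM with shMed1 #2, and 90.9, 89.7 and 81.6 CPM with shMed1 #4. Both of its log2 differences were 0.03, with 95% intervals from -0.08 to 0.14, and the groups overlapped. Mrps25 differed by 0.00 and 0.02, with 69.8% of its exon length overlapped by other genes, mostly Nr2c2.

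Members were also counted apart as having bacterial counterparts or as specific to mitochondria, a grouping made after the data were seen. It went mainly by the number in the symbol and was not checked protein by protein, so single members can be misplaced. Of the 46 grouped as having counterparts, 11 rose and 4 fell with shMed1 #2 (median 0.03). With shMed1 #4, 7 of them rose and 1 fell (median 0.07). Of the 31 tested members grouped as mitochondria-specific, 12 rose and 3 fell and then 7 rose and 4 fell, with medians of 0.11 and 0.07. The grouping went by symbol, so Mrps36, no longer counted as a ribosomal protein, is among the 3 that fell with shMed1 #2. The shares called were 32.6% and 17.4% in the first group and 48.4% and 35.5% in the second, beside 43.7% and 28.2% of all genes tested.

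The positions and promoter sequences of the members were also described. The members lie on 17 chromosomes. Of the 78, 33 have a protein-coding neighbour on the other strand whose start lies within 1000 bases of their own. The share of other genes with such a neighbour was not counted. Mrps11 and Mrpl46, themselves members, form such a pair on chromosome 7, with Mrpl46 at 0.24 (adjusted p = 0.0267) and Mrps11 at -0.17 (adjusted p = 0.136) with shMed1 #2. The call of Mrpl46 was lost in 7 of 21 alternatives, with adjusted p from 0.0157 to 0.215, among them those without replicate 1 or 2 of NTC or replicate 2 of shMed1 #2.

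RefSeq promoter windows of 300 bases on GRCm38.p6, from 250 bases before to 50 after the start, were at hand for 69 members in 75 windows. Searched on both strands, the core AAGATGGCG that YY1 is known to bind was in 10.7% of the members' windows, beside 3.22% of the 11342 windows of protein-coding genes tested here and 1.83% of all 21263 windows. The core CCGGAAG of ETS factors such as GABP was in 34.7%, beside 18.4% and 11.6%, and the core GCGCATGCG of NRF1 in 9.33%, beside 3.82% and 2.35%. With 1 further C, which completes the NRF1 palindrome and was the form searched first, the shares were 4.0%, 2.19% and 1.33%. These are letter matches, not bound sites. The 8 stretches with the YY1 core are shown with the core in capitals, read 5′ to 3′ on the strand of the gene, because they include members called higher, called lower and not called.

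Mrpl35 (chr6:71823742-71823771, minus strand): ggcaggctgcAAGATGGCGgcttccatctt
Mrpl36 (chr13:73330968-73330997, plus strand): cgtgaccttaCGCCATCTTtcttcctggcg
Mrpl37 (chr4:107066821-107066850, minus strand): tgcacgggcaAAGATGGCGgcgtccaggta
Mrpl42 (chr10:95501903-95501932, minus strand): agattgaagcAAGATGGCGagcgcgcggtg
Mrps11 (chr7:78783013-78783042, plus strand): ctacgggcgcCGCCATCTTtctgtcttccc
Mrps18a (chr17:46111005-46111034, plus strand): ggtgcgttccAAGATGGCGgccctcagggc
Mrps24 (chr11:5707652-5707681, minus strand): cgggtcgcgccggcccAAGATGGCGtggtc
Mrps27 (chr13:99344790-99344819, plus strand): ggtgcgctccAAGATGGCGgctcccatggt

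Of these 8 genes, Mrpl35, Mrpl37 and Mrpl42 rose with both hairpins, Mrpl36 rose with shMed1 #2 alone, Mrps24 fell with shMed1 #2 alone, and Mrps11, Mrps18a and Mrps27 were not called with either. The fall of Mrps24 (-0.22, adjusted p = 0.0447) was lost in 10 of 21 alternatives, among them those without any 1 of the NTC or shMed1 #2 samples, with adjusted p from 0.0132 to 0.139. In 6 of the 8 the core lies after the start on the strand of the gene, from 12 to 37 bases downstream, and in Mrpl36 and Mrps11 it lies before the start on the other strand. The ETS core was in 2 of the 12 windows of members that rose with both hairpins and in 17 of the 39 windows of members called with neither. The windows of those 2, Mrpl18 and Mrpl51, are shown to 30 bases past the start, with the core in capitals.

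Mrpl18 (chr17:12916062-12916341, minus strand): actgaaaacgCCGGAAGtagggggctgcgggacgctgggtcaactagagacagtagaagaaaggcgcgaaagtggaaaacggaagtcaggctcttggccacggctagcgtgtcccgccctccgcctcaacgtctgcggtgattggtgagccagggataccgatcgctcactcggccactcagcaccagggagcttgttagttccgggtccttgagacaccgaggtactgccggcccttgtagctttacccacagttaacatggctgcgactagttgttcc
Mrpl51 (chr6:125191950-125192229, plus strand): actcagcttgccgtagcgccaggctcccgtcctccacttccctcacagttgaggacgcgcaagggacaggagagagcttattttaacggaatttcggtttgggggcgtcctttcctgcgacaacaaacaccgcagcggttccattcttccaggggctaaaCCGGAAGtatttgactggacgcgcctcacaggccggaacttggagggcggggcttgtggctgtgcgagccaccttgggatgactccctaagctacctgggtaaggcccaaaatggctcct

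The core begins 240 bases before the start in Mrpl18 and 90 bases before it in Mrpl51. Of the factors named with these cores, Gabpa, the DNA-binding subunit of GABP, fell by 0.12 with shMed1 #2 (adjusted p = 0.0425) and by 0.18 with shMed1 #4 (adjusted p = 0.00508). The second was lost without replicate 3 of NTC (adjusted p = 0.0612, in a range from 0.00116 to 0.0612), and the first was lost in 9 of 21 alternatives (adjusted p from 0.000736 to 0.237). Yy1 differed by 0.01 (adjusted p = 0.902) and -0.08 (adjusted p = 0.243), and Nrf1 by 0.09 (adjusted p = 0.306) and 0.01 (adjusted p = 0.92).

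The 2 rRNAs that these proteins bind differed from each other in their response. The 16S rRNA of the large subunit, mt-Rnr2, stood at 2526, 2109 and 2335 CPM in NTC, 1709, 1778 and 1923 CPM with shMed1 #2, and 2513, 2371 and 2317 CPM with shMed1 #4. It fell by 0.37 with shMed1 #2 (adjusted p = 1.25e-05) and differed by 0.05 (adjusted p = 0.576) with shMed1 #4. The 12S rRNA of the small subunit, mt-Rnr1, rose by 0.32 (adjusted p = 9.86e-06) and 0.54 (adjusted p = 2.33e-09), and these calls held in all 21 refits.

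The ratio of 16S to 12S counts was 5.11, 4.57 and 4.43 in NTC, 2.79, 2.91 and 3.06 with shMed1 #2, and 3.20, 3.30 and 3.57 with shMed1 #4. All hairpin samples lay below all NTC samples. The mean was 4.70 ± 0.358 (SD, n = 3) in NTC, 2.92 ± 0.133 with shMed1 #2 and 3.36 ± 0.189 with shMed1 #4. The two-sided exact permutation p was 0.1 for each pair of groups, the smallest that 3 against 3 samples allow. The 16S rRNA was chosen after its values were seen, so this p only restates that the groups did not overlap. The sources used here do not say whether the libraries were depleted of rRNA or selected for poly(A) tails, and its part in the ratio was not tested. With shMed1 #2 the mean level of the large subunit protein mRNAs was thus above NTC while the large subunit rRNA was below it.

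Other parts of the mitochondrial translation system were described from gene lists. Of the 14 tested mitochondrially encoded RNAs, 4 rose and 3 fell with shMed1 #2 (median 0.05), and 9 rose and 0 fell with shMed1 #4 (median 0.25). Between the hairpins 11 were higher with shMed1 #4 and 0 lower. The shares called were 50%, 64.3% and 78.6%, beside 43.7%, 28.2% and 26.0% of all genes tested. Of the 5 mitoribosome proteins under other symbols, 3 rose and 1 fell with shMed1 #2 and 1 rose with shMed1 #4. The shares called were 80% and 20%, beside 43.7% and 28.2% of all genes tested. Chchd1, a small subunit protein, rose by 0.31 (adjusted p = 0.00613) and 0.50 (adjusted p = 1.64e-05). The first call was lost without replicate 2 of NTC (adjusted p = 0.0704) and with offsets for GC content and length (adjusted p = 0.0712). The same offsets with a replicate block ended it too (adjusted p = 0.0722), in a range from 0.00111 to 0.0722.

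Of the 28 genes for mitoribosome assembly and rRNA modification, 3 rose and 6 fell with shMed1 #2 (median -0.10), and 1 rose and 1 fell with shMed1 #4 (median -0.04). The shares called, 32.1% and 7.14%, lay below the 43.7% and 28.2% of all genes tested. Mrm3, a methyltransferase of 16S rRNA, rose by 0.30 (adjusted p = 0.0365) and 0.34 (adjusted p = 0.0256), calls lost in 8 and 4 of 20 alternatives. Tfb1m, the dimethylase of 12S rRNA, fell by 0.49 with shMed1 #2 (adjusted p = 0.00691). Rpusd3, a pseudouridine synthase of mitochondrial RNA, fell by 0.60 with that hairpin (adjusted p = 0.00276). Neither was called with shMed1 #4. Gtpbp10, a GTPase of large subunit assembly that was chosen after its values were seen, had 13, 12 and 12 counts in NTC, 3, 0 and 3 with shMed1 #2, and 0, 1 and 2 with shMed1 #4. Per library depth its counts were 0.152 times those of NTC with shMed1 #2 (95% counting interval from 0.0524 to 0.363) and 0.0786 times with shMed1 #4 (from 0.0155 to 0.248). Both falls passed the test (adjusted p = 9.92e-05 and 1.48e-05) at counts with little precision.

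Of the 16 mitochondrial translation factors, 2 rose and 0 fell with shMed1 #2 (12.5% called, beside 43.7% of all genes tested). For shMed1 #4 the counts were 3 rises and 1 fall (25% called, beside 28.2%). Lrpprc, which stabilizes mitochondrial mRNAs, rose by 0.29 (adjusted p = 2.53e-07) and 0.20 (adjusted p = 0.000626), and Mtif3, an initiation factor, by 0.25 (adjusted p = 0.00633) and 0.24 (adjusted p = 0.0123). The call of Mtif3 was lost without replicate 2 of shMed1 #2 (adjusted p = 0.151) and, for shMed1 #4, without replicate 3 of NTC (adjusted p = 0.0676), with ranges from 0.00126 to 0.151 and from 0.00512 to 0.0676. Of the 20 mitochondrial aminoacyl-tRNA synthetases and related genes, 0 rose and 4 fell with shMed1 #2 (20% called, beside 43.7% of all genes tested), and 0 rose and 5 fell with shMed1 #4 (25% called, beside 28.2%). Rars2, the arginyl-tRNA synthetase, fell by 0.49 (adjusted p = 3.98e-10) and 0.20 (adjusted p = 0.00985). The second call was lost without replicate 3 of NTC (adjusted p = 0.0735) or replicate 2 of shMed1 #4 (adjusted p = 0.0683), in a range from 0.00177 to 0.0735.

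The 8 genes of mitochondrial DNA transcription and upkeep had 0 calls with shMed1 #2 and 1 fall with shMed1 #4. The shares called were 0% and 12.5%, beside 43.7% and 28.2% of all genes tested. Among 8 tested regulators of mitochondrial biogenesis, Myc fell by 0.27 (adjusted p = 2.56e-06) and 0.22 (adjusted p = 0.000235). The cytosolic ribosomal proteins, with 79 tested, had 16 rises and 14 falls with shMed1 #2 (38.0% called, beside 43.7% of all genes) and 9 rises and 17 falls with shMed1 #4 (32.9%, beside 28.2%), with a median of 0.00 in each comparison.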

How the data were processed

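The authors deposited raw counts per gene, 1 table per sample for 9 samples. The submitters' processing notes name STAR, HTSeq and build GRCm38, and the sequencer was a BGISEQ-500, per the labels' protocols. The sources used here give no version, no annotation release and no strand setting, so reads of overlapping genes on opposite strands cannot be told apart, nor can reads of near-identical copies. Symbols and positions come from the GRCm38 annotation, which matched 55154 of 55335 identifiers, and no table has a line that names no gene.

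Counts were filtered with filterByExpr and scaled by TMM (factors 0.982 to 1.02), and all 13611 remaining genes were fitted over the 9 samples in edgeR 4.0.16 under R 4.3.3 with the robust quasi-likelihood test and Benjamini-Hochberg adjustment. CPM values use the scaled library sizes, and mean log2 CPM a prior count of 2. The common biological coefficient of variation was 3.68%. Chi-square per degree of freedom between replicates was 1.54 to 2.5, above sampling noise, and they were kept as separate samples. Intervals on counts cover counting error only, as the reads have no molecular identifiers.

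The scripts were tested on simulated data with 200 genes changed, drawn over all levels of expression. Changes of 1.2-fold were recovered for 44% of genes with shMed1 #2, 48% with shMed1 #4, 42% for the mean and 36% between the hairpins. Of all calls in these 4 simulations, 7.6%, 7.88%, 4.35% and 6.88% were false. Far fewer genes changed there than were called in the data, so these rates need not hold for the members. Alternatives were scaling by RLE, by upper quartile or by library size alone, 3 other filters, DESeq2 1.42.0, no robust option, only the groups compared, a replicate block, offsets for GC content and exon length, a 1.2-fold minimum and each library left out in turn. The split by bacterial counterpart, made mainly from symbol numbers, and the restriction to members with little exon overlap were added after seeing the data. The members, the gene lists and the rule for naming genes were chosen with earlier results of these data known. The rule takes the 6 highest and 6 lowest called members with each hairpin, the 4 highest and 4 lowest between the hairpins, the 5 highest and 5 lowest per length in NTC, the 3 whose intervals lie closest to 0, members of particular role, and up to 3 genes of each accompanying list. Genes outside it were chosen after their values were seen, such as Mrps5, Mrps11, Mrpl46, Gtpbp10 and mt-Rnr2. Figures were drawn with matplotlib 3.10.9.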

Additional observations from a re-analysis of the deposited data

Results flagged for a closer look

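For 11 members the effect of the hairpins differed by a test of the difference itself, shMed1 #4 minus shMed1 #2 on the log2 scale, which passed an adjusted p of 0.05 by the quasi-likelihood test of edgeR. Higher with shMed1 #4 were Mrpl33 by 0.59, Mrps6 by 0.46, Mrps36 by 0.44, Mrpl34 by 0.30, Mrps24 by 0.26, Mrpl1 by 0.22 and Mrps17 by 0.22. Lower with shMed1 #4 were Mrpl50 at -0.33, Mrps18b at -0.26, Mrpl18 at -0.24 and Mrpl58 at -0.23. In all 11 the 3 samples of shMed1 #4 lay on the same side of all 3 samples of shMed1 #2. The differences of Mrpl18, Mrpl33, Mrpl50, Mrps6, Mrps18b and Mrps36 passed in all refits that tested them, with the 1.2-fold minimum not counted as a refit. Of 21 refits, Mrpl58 lost the difference in 17, Mrpl1 in 13, Mrps24 in 6, Mrps17 in 3 and Mrpl34 in 2. Mrps17 lost it without replicate 3 of shMed1 #2 (adjusted p = 0.0904) or of shMed1 #4 (adjusted p = 0.286) and with DESeq2 (adjusted p = 0.056), in a range from 0.00203 to 0.286. The share of members called, 14.3%, lay below that of all genes tested.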

How the results depend on the processing

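No called gene changed sign. In the 21 refits (other scaling, filters, tests or terms, or a library left out, the 1.2-fold minimum apart) 15 of 30 calls with shMed1 #2, 5 of 19 with shMed1 #4 and 6 of 11 between the hairpins held in all that tested them. The large minus small difference with shMed1 #4, 0.007, turned to -0.012 with subunits assigned by structure, -0.004 without replicate 2 of NTC and -0.006 without replicate 1 of shMed1 #4. With library size alone 12 members fell with shMed1 #2. With DESeq2, 4 fell with shMed1 #2, 2 fell with shMed1 #4, and 7 differed between the hairpins, 4 of them higher with shMed1 #4. With a minimum of 1.2-fold, which by construction calls fewer, 14 members were called with shMed1 #2 (9 higher), 9 with shMed1 #4 (6 higher, 3 lower), 9 for the mean of both hairpins (7 higher, 2 lower) and 5 between the hairpins (4 higher, 1 lower). Over members with little exon overlap 7 differed between the hairpins (2 lower). The large minus small difference with shMed1 #2 was 0.053 with subunits assigned by structure, and that between the hairpins was -0.045 with medians over members. With the longest transcript as length 3 of the 5 highest members stayed. Apart from these constructions the cause was not tested.

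Leaving out each library in turn gave 24 to 33 calls with shMed1 #2 (18 to 25 higher, 3 to 8 lower), 12 to 25 with shMed1 #4 (9 to 20 higher, 0 to 5 lower), 20 to 29 for the mean (16 to 24 higher, 3 to 5 lower) and 7 to 14 between the hairpins (4 to 7 higher, 3 to 8 lower). Counts moved by over 1.5 times without replicate 3 of NTC (3 and 0 falls), replicate 1 of NTC (9 rises with shMed1 #4), replicate 1 of shMed1 #4 (12 calls with it, and 8 lower beside 6 higher between the hairpins), its replicate 2 (3 falls) and replicate 2 of shMed1 #2 (7 calls between the hairpins). The large minus small difference ranged over 0.066 to 0.089, -0.006 to 0.023, 0.031 to 0.054 and -0.083 to -0.054. Same-numbered samples did not deviate together (r from -0.0413 to 0.0416). Deviations over all genes hold much counting noise, so this check cannot show whether same-numbered samples shared a day or culture. With the replicate block 30 members were called with shMed1 #2, 18 with shMed1 #4, 24 for the mean and 9 between the hairpins. Median standard errors of 0.0778 and 0.0787 limit what could be called.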
